A study of Mus musculus with 18 samples.

Results

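Dendritic cells without CD14 were compared with wild type dendritic cells during a day of exposure to lipopolysaccharide (LPS), a component of the outer wall of gram-negative bacteria. Of the 18 Affymetrix arrays of the series, 10 belonged to this comparison: 5 of CD14-deficient cells and 5 of wild type cells, harvested after 2, 4, 6, 12 and 24 h of LPS. They were chosen by genotype and treatment, and arrays of the same time were paired. Cells were grown from bone marrow of C57BL/6 mice and of C57BL/6 mice that lack CD14 (Cd14-/-), both aged 6 to 8 weeks, with the supernatant of B16 cells made to release GM-CSF. They were used after 7 to 10 days, once more than 90% carried CD11c, and plated at a fixed number per plate. Wild type cells received smooth LPS at 1 µg/ml. The labels of the CD14-deficient cells name smooth LPS and give no concentration, so a difference in dose cannot be told apart from the genotype. Both genotypes also had 1 array without LPS, harvested 24 h after plating, which served as a baseline. The remaining 6 arrays, of wild type cells with the calcium chelator EGTA, are in neither compared group. They entered the scaling, the choice of probe sets and of genes tested, the estimate of the spread and the sorting of genes by LPS response. Each genotype and time had 1 array and no label names separate cultures or animals, so p-values speak only of how far these arrays scatter, and that scatter may be technical. Each array sums many cells: fewer cells that express a gene cannot be told apart from less RNA of that gene per cell.

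CD14 is a lipid-anchored surface protein that hands LPS to the receptor TLR4 and its partner MD-2 (Ly96). TLR4 signals from the cell surface through the adaptors Mal and MyD88, which drive NF-kB and inflammatory cytokines, and from endosomes through TRAM and TRIF, which drive the factor IRF3 and interferon beta. Interferon beta then acts on the same cells through its receptor IFNAR and a complex that holds STAT2 and IRF9, which binds the interferon-stimulated response element (ISRE) and turns on antiviral genes. The design text of the series names blocked TRIF recruitment in cells without CD14 as an effect to be set apart from that of calcium flux. The present comparison holds the effect of missing CD14 as a whole.

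The RNA integrity number was 9.7 to 10 in the wild type LPS arrays and 9.3 to 9.7 in the CD14-deficient ones. None of the 13 listed dendritic cell markers was dim on every array, and Itgax, which encodes CD11c, was at 11.22 to 12.08 in wild type and 11.85 to 12.32 in CD14-deficient cells under LPS. Levels are quantile-normalised log2(intensity + 16), a scale that starts at 4. Differences are CD14-deficient minus wild type on that scale, given with their standard error, so that -1 is a 2-fold lower level. They understate the change of genes near the start of the scale.

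The promoters of 4 genes that were lower in CD14-deficient cells are shown first, because interferon response genes were prominent among those lower at 2 h, and ISRE matches are counted further on. Only promoters that hold an ISRE match were eligible to be shown, so the matches in all 4 follow from that choice. Ifit1 and Igtp are among the genes whose difference was more negative at 2 h than later, and Ifih1 and Cxcl10 are not. Each sequence, from RefSeq on GRCm38.p6, runs from 250 bases before to 50 bases after the annotated start of the gene, 5′ to 3′ on the gene's strand. Capitals mark each match to the ISRE core GAAANNGAAA on either strand. Ifit1 encodes a protein that binds viral RNA (chr19:34640639-34640938, plus strand, with 2 matches at positions -104 and -85 from the start). Igtp encodes a GTPase that acts on vacuoles of intracellular microbes (chr11:58199306-58199605, plus strand, 1 match at -34). Ifih1 encodes MDA5, a cytosolic sensor of double-stranded RNA (chr2:62646206-62646505, minus strand, 1 match at 33). Cxcl10 encodes a chemokine that attracts activated T cells (chr5:92348840-92349139, minus strand, 1 match at -213). A match describes the sequence and does not show that a factor was bound there.
Ifit1: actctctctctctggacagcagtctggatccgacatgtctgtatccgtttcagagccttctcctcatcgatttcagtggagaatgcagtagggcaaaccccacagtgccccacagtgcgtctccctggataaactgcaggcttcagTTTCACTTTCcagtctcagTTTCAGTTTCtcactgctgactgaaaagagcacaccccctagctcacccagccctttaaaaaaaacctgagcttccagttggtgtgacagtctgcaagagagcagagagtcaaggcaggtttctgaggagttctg
Igtp: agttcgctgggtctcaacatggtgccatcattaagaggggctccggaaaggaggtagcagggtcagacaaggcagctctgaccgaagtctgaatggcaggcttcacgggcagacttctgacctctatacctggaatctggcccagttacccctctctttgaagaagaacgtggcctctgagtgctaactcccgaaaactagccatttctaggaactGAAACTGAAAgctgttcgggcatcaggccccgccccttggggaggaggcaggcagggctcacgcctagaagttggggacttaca
Ifih1: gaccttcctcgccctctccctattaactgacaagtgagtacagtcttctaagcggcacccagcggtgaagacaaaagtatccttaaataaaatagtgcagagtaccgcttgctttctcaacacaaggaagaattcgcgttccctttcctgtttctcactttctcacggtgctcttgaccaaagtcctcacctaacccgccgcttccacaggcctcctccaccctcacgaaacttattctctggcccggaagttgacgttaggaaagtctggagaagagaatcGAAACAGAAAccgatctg
Cxcl10: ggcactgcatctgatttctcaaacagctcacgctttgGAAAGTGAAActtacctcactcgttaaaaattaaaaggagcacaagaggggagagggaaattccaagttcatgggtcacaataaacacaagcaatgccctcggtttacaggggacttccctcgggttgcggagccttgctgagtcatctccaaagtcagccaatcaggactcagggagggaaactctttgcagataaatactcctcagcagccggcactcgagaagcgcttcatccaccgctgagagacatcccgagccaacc

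Averaged over the 5 times, 874 of 6929 genes tested were lower in CD14-deficient cells (12.6%) and 1184 were higher (17.1%), by limma with the LPS time as a block and a Benjamini-Hochberg adjusted p below 0.05. Among differences of at least 2-fold, 96 genes were lower (1.39%) and 41 higher (0.592%). Without the time block, which takes up the changes common to both genotypes, 57 genes were lower and 49 higher. The median difference over all genes tested was 0.04. The balance of directions rested on the scaling: lower genes made up 42.5% of all calls with quantile scaling, 56.5% with median centring and 77.9% with no further scaling of the deposited values, which moved the median of all genes to -0.07. Genes lower and higher numbered 1070 and 823 with median centring, and 1058 and 301 with no further scaling. List counts given below for those 2 scalings stand against these counts and not against 12.6% and 17.1%. Genes past 2-fold lower and higher numbered 175 (2.53%) and 84 (1.21%) at 2 h, and 131 (1.89%) and 92 (1.33%) at 4 h. At 6 h they numbered 129 (1.86%) and 87 (1.26%), at 12 h 131 (1.89%) and 64 (0.924%), and at 24 h 133 (1.92%) and 75 (1.08%). The ranges of the 5 wild type and the 5 CD14-deficient arrays did not overlap for 302 genes (4.36%).

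Genes that LPS raised were more often lower without CD14 than the rest. Genes were sorted by their response in the EGTA series, whose arrays are not among the 10 compared: 667 genes averaged at least 2-fold above that series' unstimulated array, 426 at least 2-fold below it, and 5836 neither. Of the 667 raised genes 279 were lower in CD14-deficient cells (41.8%, against 12.6% of all genes) and 41 higher (6.15%, against 17.1%). Of the 426 lowered genes 32 were lower (7.51%) and 137 higher (32.2%). Of the 5836 others 9.65% were lower and 17.2% higher. The differences between these classes were not tested. The share of the 667 genes that stood below wild type was smallest at 6 h (442 genes, 66.3%) and largest at 2 h (487 genes, 73%). Of all 6929 genes tested 3013 lay below wild type on the mean of the 5 times.

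**Figure D1:**
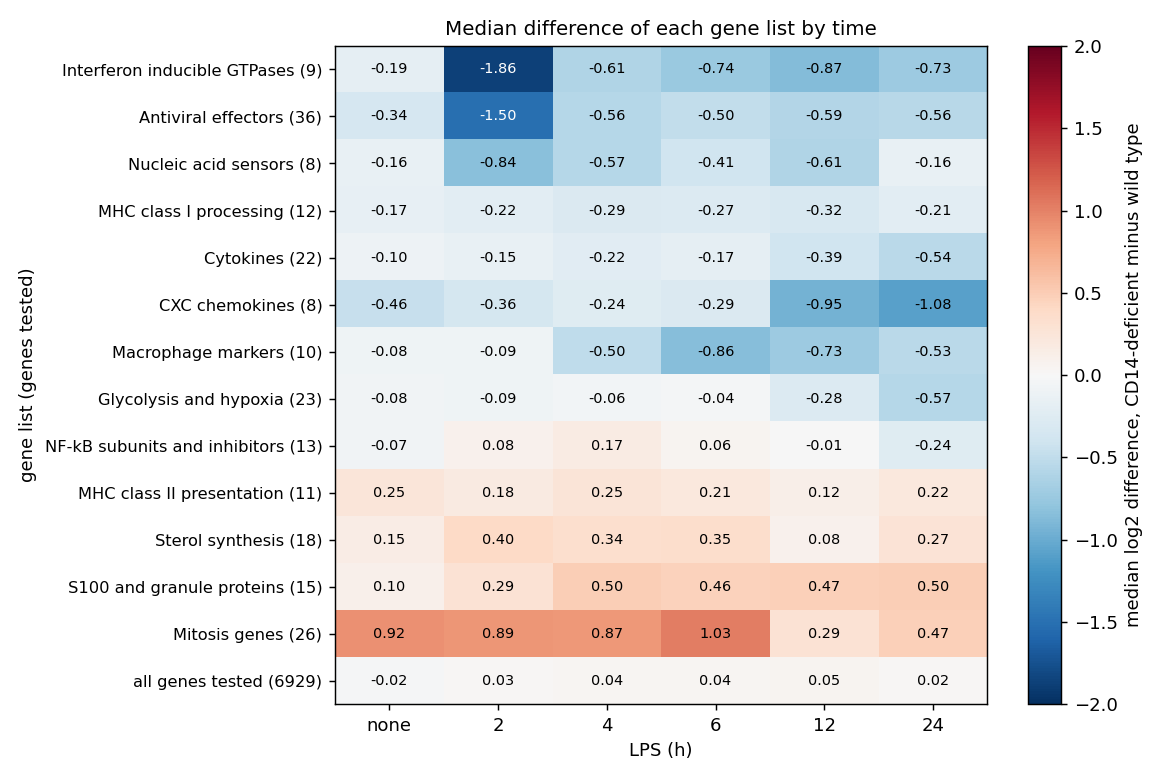
Median log2 difference (CD14-deficient minus wild type, colour scale and printed values) of the tested members of 13 gene lists and of all genes tested, without LPS and by hours of LPS, with 1 array per genotype behind each column. The interferon inducible GTPases (-1.86) and antiviral effectors (-1.5) are lowest at 2 h, the CXC chemokines at 24 h (-1.08), and the mitosis genes are above wild type in every column (0.29 to 1.03).

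Cd14 itself followed the labels. Its level was 12.65 in unstimulated wild type cells and 13.23, 13.06, 13.00, 12.79 and 13.28 at 2, 4, 6, 12 and 24 h of LPS, the order in which levels are given from here on. In CD14-deficient cells it was 5.40 without LPS and 4.35, 4.48, 4.28, 5.83 and 5.38 with it. The groups were far apart at every time (-8.21 ± 0.24, adjusted p = 1.85e-10, limma). Of 14 tested genes of the LPS receptor and its adaptors 4 were lower, Cd14 included (28.6%, against 12.6% of all genes), and 0 higher (17.1% of all genes), with a list median of -0.08. Without the 12 h arrays 2 were lower. Tlr4, the signalling receptor, was at 9.0, 9.33, 9.62, 10.13 and 10.50 in wild type and 9.29, 9.65, 10.04, 9.97 and 10.34 in CD14-deficient cells, groups that overlapped (0.14 ± 0.11, adjusted p = 0.347). Ly96 lay at 9.55 to 10.16 and 9.42 to 10.03 and did not pass (-0.12 ± 0.06, adjusted p = 0.121), except with median centring (-0.19). Cd180, a TLR4 homologue that restrains LPS signalling, was lower (-0.72 ± 0.13, adjusted p = 0.00147). Ikbke, a kinase that acts on IRF3 beside TBK1, was lower too (-0.33 ± 0.08, adjusted p = 0.0108), a call lost without the 12 h arrays (-0.29).

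Interferon beta mRNA was lower in cells without CD14, most at 2 and 4 h. Ifnb1 was at 5.44 in unstimulated wild type cells and 10.34, 8.25, 6.97, 6.18 and 5.41 under LPS, and CD14-deficient cells went from 5.55 to 8.15, 6.19, 5.58, 5.41 and 5.38. CD14-deficient cells stood lower at each time, by -2.19 at 2 h and by -0.03 at 24 h, when both were near their unstimulated level (mean -1.29 ± 0.26, adjusted p = 0.00276). The difference moved by 0.64 ± 0.11 per doubling of the time (adjusted p = 0.0329), a call lost without the 4, the 12 or the 24 h arrays (0.60, 0.64 and 0.58). Of the chains of its receptor, Ifnar2 was lower (-0.44 ± 0.08, adjusted p = 0.00195, 5 of 5 times), while Ifnar1 was at 9.12 to 9.66 in wild type and 9.17 to 9.59 without CD14 (-0.05 ± 0.07, adjusted p = 0.665). These were the 3 genes of the 10 listed interferons and receptors that passed the filter on dim genes.

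**Figure D2:**
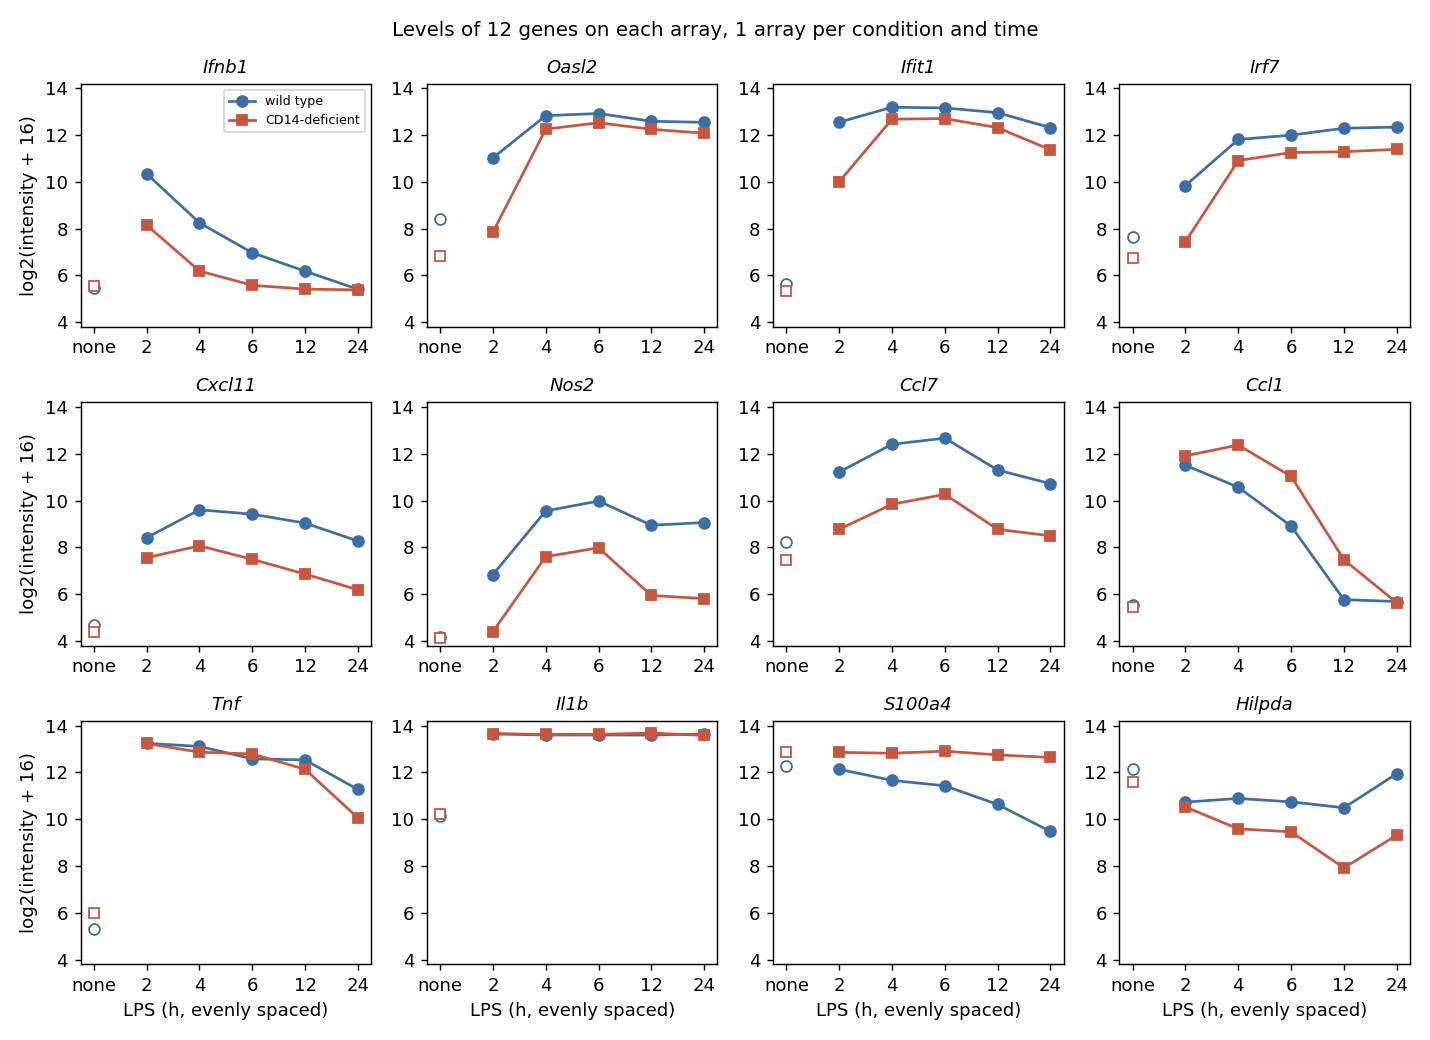
Levels of 12 genes, as log2(intensity + 16), on each array of wild type (blue circles) and CD14-deficient cells (red squares), without LPS (open symbols) and by hours of LPS, evenly spaced (filled symbols joined by lines), with 1 array per point and no error bars. Oasl2, Ifit1 and Irf7 are furthest apart at 2 h, Nos2, Ccl7 and Cxcl11 stay apart at all 5 times, Ccl1 is higher without CD14 at 4, 6 and 12 h, and Tnf and Il1b run close together up to 6 h.

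The antiviral genes that interferon turns on stood furthest below wild type at 2 h. Of 36 tested antiviral effectors 31 were lower over the 5 times and 0 higher, against 12.6% and 17.1% of all genes. At each of the 5 times 35 of them lay below wild type, as did 1022 of all 6929 genes tested. Their median difference was -1.5 at 2 h and -0.56, -0.50, -0.59 and -0.56 at 4, 6, 12 and 24 h, and without LPS it was -0.34. Over the settings that leave out arrays of 1 time 27 to 35 of the 36 were lower, while without the time block 0 were. Ifit1 was at 12.55, 13.19, 13.16, 12.96 and 12.32 in wild type and 10.01, 12.68, 12.71, 12.32 and 11.37 in CD14-deficient cells (-1.02 ± 0.26, adjusted p = 0.0117). Ifit2, an effector of the same family, was at 12.32, 13.43, 13.42, 13.25 and 12.68 against 9.33, 12.74, 12.88, 12.35 and 11.46 (-1.27 ± 0.30, adjusted p = 0.00685). Both genes lay more than 2 units below wild type at 2 h and within 1 unit of it from 4 to 12 h. Oasl2, of the oligoadenylate synthetase family, was at 11.03, 12.83, 12.92, 12.59 and 12.55 against 7.85, 12.25, 12.53, 12.25 and 12.08, with its widest gap at 2 h, and its mean difference did not pass (-0.99 ± 0.36, adjusted p = 0.0532). Its unstimulated levels were 8.42 and 6.83, so it also started lower. Other members kept their distance through the day. The exonuclease Isg20 was at 8.36, 10.88, 11.33, 11.38 and 11.23 against 6.60, 9.75, 9.90, 9.45 and 9.13 (-1.67 ± 0.11, adjusted p = 4.87e-07), and the virus restriction factor Mx1 at 12.11, 12.88, 12.83, 12.30 and 11.09 against 10.56, 12.08, 11.67, 10.93 and 10.29 (-1.13 ± 0.11, adjusted p = 1.05e-05). Both were lower at 5 of 5 times. Ifitm3, which blocks virus entry, was lower by less (-0.53 ± 0.05, adjusted p = 2.23e-05) and without LPS was at 12.85 in wild type and 12.12 in CD14-deficient cells.

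Counted against each genotype's own unstimulated array, fewer interferon genes stood above baseline at 2 h without CD14. Of the 36 antiviral effectors 25 were at least 2-fold above it in wild type and 13 in CD14-deficient cells at 2 h, with 12 in wild type alone and 0 in CD14-deficient cells alone. At 4 h the counts were 32 and 31. The median change of these genes from baseline was 1.71 in wild type and 0.49 in CD14-deficient cells at 2 h, and 3.32 and 3.03 at 4 h. NF-kB subunits and inhibitors gave 12 of 13 genes in wild type and 11 in CD14-deficient cells at 2 h, with median changes of 1.86 and 2.05. Of all 667 raised genes 310 stood 2-fold above baseline in wild type and 237 in CD14-deficient cells at 2 h, with 93 in wild type alone and 20 in CD14-deficient cells alone. At 4 h these counts were 470 and 446, and at 24 h 374 and 343. Each baseline is 1 array, and no test was made of these counts.

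The interferon inducible GTPases and the nucleic acid sensors also had their widest median gap at 2 h. All 9 tested interferon inducible GTPases were lower, against 12.6% of all genes (8 or 9 over the settings that leave out arrays of 1 time, 0 without the time block), with a median of -1.86 at 2 h and between -0.87 and -0.61 after that. Iigp1, which attacks the vacuoles of parasites, was at 9.08, 12.65, 12.82, 12.24 and 11.01 in wild type and 7.20, 10.92, 11.43, 10.43 and 9.43 in CD14-deficient cells, lower at 5 of 5 times (-1.68 ± 0.13, adjusted p = 1.62e-06). Igtp was at 10.11, 11.76, 11.78, 11.39 and 10.76 against 8.25, 10.80, 11.04, 10.39 and 9.90 (-1.08 ± 0.15, adjusted p = 2.38e-04). The guanylate-binding proteins Gbp6 (-1.37 ± 0.17) and Gbp3 (-0.88 ± 0.08) were lower too. Of 8 nucleic acid sensors 5 were lower (62.5%, against 12.6% of all genes), or 6 with no further scaling, and 1, Sting1, was higher (0.31 ± 0.10, adjusted p = 0.0404, lost in 12 of the 15 settings that leave out arrays of 1 time). Tlr3, the endosomal receptor for double-stranded RNA, was at 7.22, 9.88, 10.30, 8.92 and 8.09 against 5.72, 8.37, 8.78, 7.36 and 7.42 (-1.35 ± 0.14, adjusted p = 1.88e-05). Its gap was smallest at 24 h (-0.68). Ifih1 was at 12.47, 12.98, 12.88, 12.05 and 11.45 against 11.34, 12.41, 12.17, 11.39 and 10.84 (-0.74 ± 0.09, adjusted p = 9.22e-05), and its relative Dhx58 was lower as well (-0.75 ± 0.15, adjusted p = 0.003).

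Of 14 tested signalling factors of the interferon pathway 7 were lower (50%, against 12.6% of all genes) and 0 higher (17.1% of all genes). Irf7, the factor that amplifies interferon production, was at 9.84, 11.81, 12.00, 12.29 and 12.34 in wild type and 7.44, 10.91, 11.25, 11.29 and 11.39 in CD14-deficient cells (-1.20 ± 0.18, adjusted p = 4.90e-04). The gap was -2.40 at 2 h and -0.90, -0.74, -1.01 and -0.95 at the later times. Stat2, a part of the complex that binds the ISRE, was lower (-0.81 ± 0.11, adjusted p = 2.38e-04), and so was Irf1, an early target of interferon and NF-kB (-0.61 ± 0.14, adjusted p = 0.00627), which at 24 h was at 10.10 without CD14 and 9.85 in wild type. Irf8, a lineage factor of dendritic cells, was at 11.43 to 12.43 and 11.19 to 12.52. Of 8 feedback inhibitors 4 were lower (50%) and 0 higher, but 2 were lower in 11 of the 15 settings that leave out arrays of 1 time. Usp18, which shuts off IFNAR signalling, was at 12.27, 13.32, 13.25, 13.21 and 12.89 against 10.25, 12.82, 12.78, 12.47 and 11.91 (-0.94 ± 0.19, adjusted p = 0.00319), and Socs1 differed by -0.73 ± 0.09 (adjusted p = 1.40e-04). Of 12 genes that prepare and load peptides for MHC class I 9 were lower (75%) and 0 higher, with a median of -0.31 that was no larger at 2 h (-0.22). Psmb10, a subunit of the immunoproteasome (-0.52 ± 0.06, adjusted p = 7.65e-05), and Tapbp, which helps to load peptides (-0.32 ± 0.05, adjusted p = 7.00e-04), were among them. The peptide transporter subunit Tap1 was lower by its brightest probe set (-0.56 ± 0.09, adjusted p = 8.26e-04) and did not pass as the mean of its probe sets (-0.29).

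The 2 h difference minus the mean difference of the later times was negative for 53 genes (0.765% of 6929) and positive for 13 (0.188%), while 670 had an unadjusted p below 0.05. Every such contrast rests on the 1 pair of 2 h arrays, which is assumed to vary like the other times. The CD14-deficient 2 h array had the lowest median Pearson's r with the arrays of the series among the LPS arrays (0.9587), and the wild type 2 h array had 0.9649. Of the 53 genes 47 were among the 667 raised by LPS, 19 among the 36 antiviral effectors and 4 among the 9 interferon inducible GTPases, out of 6929 genes tested. Oasl2 had the most negative contrast (-2.73 ± 0.12, adjusted p = 6.90e-07), followed by Rasa4 (-2.23 ± 0.19), Ifit2 (-2.16 ± 0.26), Pml (-1.99 ± 0.22), Ifit1 (-1.91 ± 0.17) and Rtp4 (-1.91 ± 0.12). Pml organises nuclear bodies, and its call was lost with 64 added before the log (-0.90), its 2 h level without CD14 of 4.65 being close to the start of the scale. Rasa4, a Ras GTPase activating protein, was at 8.50, 9.64, 9.52, 9.05 and 8.51 against 5.39, 8.84, 8.81, 8.19 and 7.37. Genes outside the naming rule, named after their values were seen, were Ifit3 (contrast -1.77 ± 0.15), Irgm1 (-1.70 ± 0.18), Oas2 (-1.0 ± 0.19), the nucleoside phosphorylase Pnp (-1.07 ± 0.10) and the actin bundler Fscn1 (-0.65 ± 0.12).

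The 13 genes with the opposite pattern included none of the listed antiviral effectors, GTPases or sensors. Those lists hold only 36, 9 and 8 of the 6929 genes tested, so their absence from 13 genes says little. Ccl12, a monocyte chemokine, was at 9.12, 8.96, 8.90, 8.92 and 7.94 against 10.13, 7.16, 6.46, 6.39 and 6.50, so that it was higher without CD14 at 2 h and lower at every later time (2 h minus later 3.07 ± 0.38, adjusted p = 0.00204). Dusp1, a phosphatase that switches off MAP kinases, was at 9.47 against 10.67 at 2 h and within 0.1 of wild type at 4, 6 and 12 h (1.33 ± 0.23, adjusted p = 0.0192), a call lost without the 4 or the 12 h arrays. Fcgr1, the high-affinity IgG receptor, was at 9.78 in both genotypes at 2 h and at 9.78 to 10.51 without CD14 over the day, against 9.78 to 11.72 in wild type. Zdhhc6 was at 5.87 on the wild type 2 h array and at 5.87, 8.92, 8.73, 9.04 and 9.03 over the wild type series, so its contrast (2.76 ± 0.38) rests on that array. Uroc1 (2.03 ± 0.26), Adam4 (1.73 ± 0.31) and Fbxo32 (1.79 ± 0.37) were the others named by the rule, and the calls of Fcgr1, Adam4 and Fbxo32 were lost when single times were left out.

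**Figure D3:**
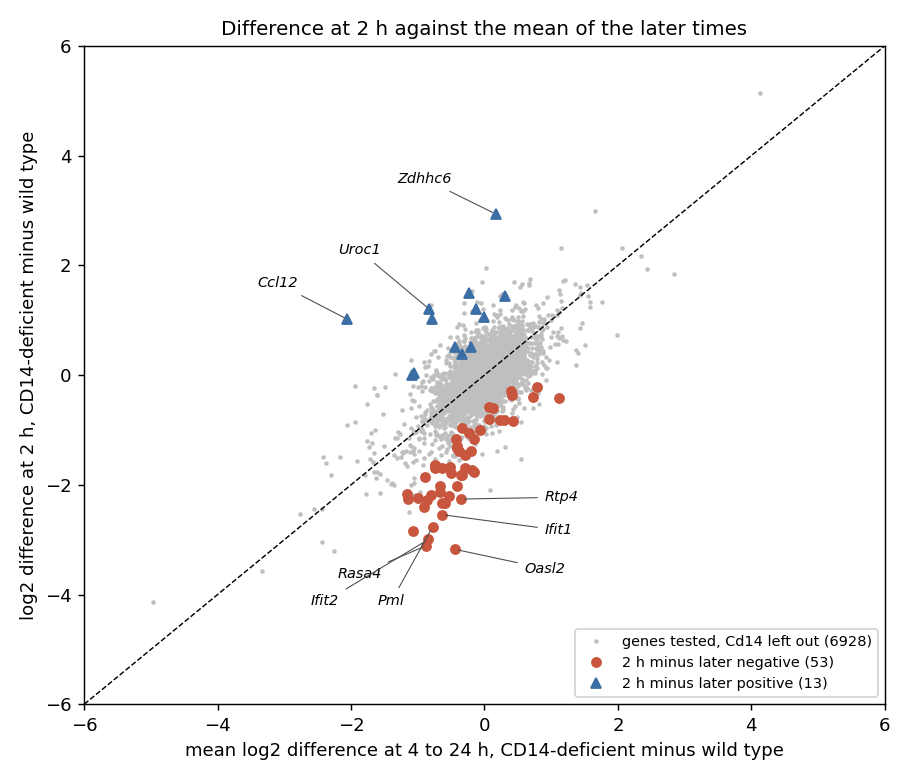
Log2 difference (CD14-deficient minus wild type) at 2 h, on the vertical axis, against the mean log2 difference at 4 to 24 h, on the horizontal axis, for 6928 genes tested, Cd14 left out, with equal differences on the dashed line. The 53 genes with a negative contrast (red circles) reach -3.18 at 2 h (Oasl2) and the 13 with a positive one (blue triangles) reach 2.93 (Zdhhc6).

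ISRE matches were counted in the promoters of the 53 genes whose difference was more negative at 2 h than later. A gene with several windows counted as holding a motif where any of them did. Of these genes 42 had a promoter window, and 16 of those (38.1%) held GAAANNGAAA on either strand, against 242 of 5711 genes tested with a window (4.24%). Counted by single windows, a unit unlike that of genes, 1131 of all 32851 held it (3.44%). Of genes lower over the 5 times 60 of 691 held it (8.68%), and of genes higher 33 of 979 (3.37%). Within the genes raised by LPS, 35 of the 216 that were lower held it (16.2%) and 19 of the 294 that were not lower (6.46%). The kB consensus, bound by NF-kB, was in 37 of the same 216 (17.1%) and 52 of the 294 (17.7%). It was in 723 of the 5711 genes tested with a window (12.7%) and 7 of the 42 (16.7%). Of genes lower over the 5 times 109 of 691 held it (15.8%), and of genes higher 108 of 979 (11%). Among genes at least 2-fold lower kB was in 19 of 69 (27.5%) and the ISRE in 10 (14.5%). Among those at least 2-fold higher they were in 6 of 29 (20.7%) and 3 (10.3%). Matches of different motifs may overlap. The shares are descriptions with no test, and a missing match says only that these letters are not in the window.

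Among cytokines 10 of 22 tested genes were lower (45.5%, against 12.6% of all genes) and 0 higher (17.1% of all genes), with a median of -0.15 at 2 h and -0.54 at 24 h. Tnf was at 13.25, 13.11, 12.58, 12.54 and 11.27 in wild type and 13.24, 12.87, 12.79, 12.13 and 10.06 in CD14-deficient cells, groups that overlapped and were furthest apart at 24 h (-0.33 ± 0.15, adjusted p = 0.123). It passed with no further scaling (-0.44) and without the CD14-deficient 6 h array (-0.46). Il1b was at 13.60 to 13.65 in wild type and 13.58 to 13.69 in CD14-deficient cells, near the top of the scale (0.02 ± 0.03, adjusted p = 0.719). Il12b, the shared subunit of IL-12 and IL-23, was at 13.37, 13.31, 13.46, 13.16 and 12.82 against 13.13, 13.44, 13.25, 13.10 and 12.13 (-0.21 ± 0.11, adjusted p = 0.167) and passed with no further scaling (-0.32). Il6 was at 13.64, 13.82, 13.52, 13.37 and 13.18 against 13.38, 13.62, 13.50, 13.04 and 12.09 (-0.38 ± 0.13, adjusted p = 0.0414), a call lost in 10 of the 15 settings that leave out arrays of 1 time. Both Il6 and Tnf were furthest below wild type at 24 h. Il6 (up to 13.82), Il12b (up to 13.46) and Tnf (up to 13.25) also came near the top of the scale at the earlier times. Whether this narrowed their early gaps was not tested.

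Other cytokines were lower at each time. Il10, which restrains inflammation, was at 8.06, 9.17, 8.81, 7.56 and 5.79 in wild type and 7.04, 7.94, 7.86, 6.08 and 5.22 in CD14-deficient cells (-1.05 ± 0.24, adjusted p = 0.00569). Il15, which sustains NK cells and memory T cells, was at 9.49, 11.56, 11.18, 10.15 and 9.52 against 7.62, 10.33, 10.05, 8.99 and 8.83 (-1.22 ± 0.17, adjusted p = 2.51e-04). Il33, an alarmin of the IL-1 family, was at 8.58, 9.27, 9.41, 8.89 and 8.12 against 6.33, 7.32, 7.99, 7.99 and 7.90, groups that did not overlap (-1.35 ± 0.33, adjusted p = 0.00881). Il1rn, the natural blocker of IL-1 (-0.38 ± 0.05, adjusted p = 1.32e-04), and Csf1, the macrophage growth factor (-0.64 ± 0.08, adjusted p = 1.15e-04), were lower at 5 of 5 times. Il2, a known target of NFAT, stood out at 2 h alone: it was at 8.80, 4.76, 4.36, 4.33 and 4.34 against 8.51, 5.05, 4.15, 4.21 and 4.15, groups that overlapped (-0.10 ± 0.31, adjusted p = 0.83). Without LPS it was at 4.50 and 4.20.

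Chemokines differed by member. Of 13 CC chemokines 7 were lower (53.8%, against 12.6% of all genes) and 2 higher (15.4%, against 17.1%), or 9 and 1 with no further scaling. The 7 fell to 4 without the 4 h or the 6 h arrays, without the wild type 6 h or 12 h array and without the CD14-deficient 6 h array. Of 8 CXC chemokines 4 were lower (50%) and 0 higher, and 4 were lower in every setting that leaves out arrays. Ccl7, which attracts monocytes through CCR2, was at 11.22, 12.41, 12.67, 11.31 and 10.72 in wild type and 8.77, 9.84, 10.27, 8.77 and 8.49 in CD14-deficient cells, groups that did not overlap (-2.44 ± 0.20, adjusted p = 3.15e-06). Ccl2, another ligand of CCR2, was at 12.84, 13.25, 13.35, 13.17 and 13.06 against 11.56, 11.90, 12.45, 12.08 and 11.93, again without overlap (-1.15 ± 0.19, adjusted p = 8.76e-04). Ccl8 (-1.24 ± 0.21) and Ccl4 (-0.55 ± 0.09) were lower, and Ccl5 passed (-0.15 ± 0.05) with a call lost in 11 of the 15 settings that leave out arrays of 1 time. Ccl1, a ligand of CCR8, was higher instead: it was at 11.51, 10.57, 8.91, 5.76 and 5.68 against 11.91, 12.37, 11.03, 7.47 and 5.63 (1.20 ± 0.32, adjusted p = 0.0136), apart at 4, 6 and 12 h and level at 24 h. That call was lost without the 4, the 6 or the 12 h arrays (1.05, 0.97 and 1.07) and without the CD14-deficient 4 h array (0.98). Ccl17, a ligand of CCR4, was higher with quantile scaling (0.20 ± 0.05) and did not pass with median centring (0.16) or no further scaling (0.09).

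The chemokines that draw T cells through CXCR3 were lower at each time. Cxcl11 was at 8.41, 9.61, 9.42, 9.04 and 8.27 in wild type and 7.56, 8.07, 7.49, 6.86 and 6.18 in CD14-deficient cells, without overlap (-1.72 ± 0.15, adjusted p = 7.85e-06). Cxcl10 was at 13.29, 13.58, 13.51, 13.04 and 12.10 against 12.58, 13.07, 12.85, 12.04 and 10.73 (-0.85 ± 0.10, adjusted p = 7.42e-05), and Cxcl9 at 8.40, 9.44, 8.98, 8.57 and 7.85 against 7.35, 8.97, 8.35, 7.25 and 6.16 (-1.03 ± 0.15, adjusted p = 3.60e-04). The gaps of Cxcl10 and Cxcl9 were widest at 24 h, but the slope of the difference on time did not pass for Cxcl11 (adjusted p = 0.0535), Cxcl10 (adjusted p = 0.0813) or Cxcl9 (adjusted p = 0.235). Pf4, of the same family and also known from platelets, was at 11.49, 11.61, 11.40, 11.68 and 12.08 against 10.09, 10.09, 9.95, 10.41 and 11.65 (-1.21 ± 0.21, adjusted p = 0.00115), and without LPS at 11.88 against 9.86. Of 7 chemokine receptors 1 (2 with no further scaling) was lower, Ccr1 (-0.57 ± 0.09, adjusted p = 5.49e-04), and 3 were higher (42.9%, against 17.1% of all genes): Cxcr4 (0.70 ± 0.12, adjusted p = 0.00128), Ccr2, the receptor for Ccl2 and Ccl7 (0.83 ± 0.19, adjusted p = 0.00541), and the formyl peptide receptor Fpr2 (0.52 ± 0.08, adjusted p = 4.49e-04). Ccr7, which guides dendritic cells to lymph nodes, was at 11.27 to 12.64 and 11.40 to 13.03 (0.10 ± 0.06, adjusted p = 0.239), a difference whose sign turned with no further scaling (-0.05).

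With quantile scaling, NF-kB and immediate early genes gave no larger share of calls than all genes, of which 12.6% were lower and 17.1% higher. Of 13 NF-kB subunits and inhibitors 1 was lower and 1 higher (7.69% each) with quantile scaling, 2 and 0 with median centring, and 3 and 0 with no further scaling. Nfkbib, an inhibitor, was lower (-0.24 ± 0.07, adjusted p = 0.0184), a call lost without the 4 or the 12 h arrays (-0.25 and -0.26), and Relb, a subunit, was higher (0.26 ± 0.08, adjusted p = 0.0313), lost in 10 of the 15 settings that leave out arrays of 1 time. Tnfaip3, the feedback enzyme A20, was at 11.86, 11.30, 11.04, 10.98 and 10.47 against 11.86, 11.14, 11.07, 10.43 and 9.69 (-0.29 ± 0.12, adjusted p = 0.0777). Of 24 immediate early genes 2 were lower and 2 higher (8.33% each), 4 and 2 with median centring and 3 and 0 with no further scaling. Without the CD14-deficient 2 h array 7 were lower, and without all 2 h arrays 5. Atf3, a stress-induced repressor, was at 10.78, 11.31, 11.07, 11.36 and 11.96 in wild type and 9.95, 10.27, 10.31, 10.49 and 10.95 in CD14-deficient cells (-0.90 ± 0.07, adjusted p = 1.70e-06), although without LPS it was at 9.69 and 10.17. Ier5 was lower (-0.25 ± 0.06), and Btg2 (0.37 ± 0.08) and Maff (0.39 ± 0.12) were higher. Nr4a1, an orphan nuclear receptor, was at 7.10, 6.82, 6.57, 6.64 and 7.03 against 7.91, 7.12, 6.83, 6.14 and 6.59 (0.09 ± 0.24, adjusted p = 0.806).

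The enzymes that make nitric oxide and prostaglandin E2 differed in unlike ways. Nos2, the inducible nitric oxide synthase, was at 6.84, 9.55, 9.98, 8.95 and 9.06 in wild type and 4.40, 7.60, 7.98, 5.94 and 5.81 in CD14-deficient cells (-2.53 ± 0.35, adjusted p = 2.80e-04). At 2 h its level without CD14 was close to the unstimulated 4.14. Arg1, the arginase that uses the same substrate, was lower as well (-1.84 ± 0.19, adjusted p = 2.54e-05), and without LPS was at 12.78 in wild type and 11.28 in CD14-deficient cells. The other 8 of 10 tested genes of nitric oxide and arginine did not pass (20% lower, against 12.6% of all genes). Ptgs2, the inducible cyclooxygenase, was at 13.04, 13.32, 13.22, 13.20 and 13.20 against 12.81, 13.08, 13.25, 12.75 and 11.80 (-0.46 ± 0.15, adjusted p = 0.0319), a call lost in 6 of the 15 settings that leave out arrays of 1 time. Ptges, a prostaglandin E synthase, was at 6.95, 8.03, 8.09, 9.25 and 10.32 against 7.26, 8.21, 8.71, 9.02 and 8.88, parted at 24 h. The prostaglandin receptors Ptger4 (0.43 ± 0.06, adjusted p = 2.81e-04) and Ptgir (0.41 ± 0.08, adjusted p = 0.00321) and the leukotriene helper Alox5ap (0.38 ± 0.12, adjusted p = 0.0351) were higher. Of 17 calcineurin and NFAT pathway genes 3 were lower (17.6%) and 1 higher (5.88%, against 17.1% of all genes), with a list median of -0.01. With no further scaling 2 were lower and 0 higher, and 1 was lower without the 4 h or the 12 h arrays, without the wild type 4 h array and without the CD14-deficient 4 h or 12 h array. Gadd45g, a stress gene of the growth arrest family, was at 6.78, 8.84, 9.08, 8.84 and 8.75 in wild type and 6.42, 7.12, 6.90, 7.43 and 7.64 in CD14-deficient cells (-1.36 ± 0.19, adjusted p = 2.38e-04).

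Maturation genes were split and MHC class II genes leaned higher. Of 20 costimulation and maturation genes 7 were lower (35%, against 12.6% of all genes) and 2 higher (10%, against 17.1%), or 9 and 0 with no further scaling. Cd274 (PD-L1), a checkpoint ligand that interferon induces, was at 11.79, 12.61, 12.72, 12.81 and 12.61 in wild type and 11.01, 11.96, 12.05, 12.06 and 11.74 in CD14-deficient cells (-0.74 ± 0.07, adjusted p = 8.54e-06). Cd40 was at 11.93, 12.84, 12.87, 12.53 and 11.42 against 11.51, 12.54, 12.55, 12.21 and 10.93 (-0.37 ± 0.06, adjusted p = 5.46e-04). Il2ra, the high-affinity IL-2 receptor chain, was lower by its brightest probe set (-0.59 ± 0.10, adjusted p = 8.99e-04), while its other probe set, at a mean level of 9.30, gave -0.13. Cd86 was at 11.43 to 12.47 and 11.21 to 12.35 (-0.17 ± 0.07, adjusted p = 0.0924), and passed with median centring (-0.26), no further scaling (-0.33) and without the CD14-deficient 24 h array (-0.21). The other Cd86 probe set, at a mean level of 10.67, had the opposite sign (0.12). Of 11 MHC class II genes 7 were higher (63.6%) and 1 lower with quantile scaling, 4 and 1 with median centring, and 3 and 2 with no further scaling. Over all genes the number higher also fell, from 1184 with quantile scaling to 823 and 301 with the other 2. H2-Ab1, a class II chain, was at 13.04, 12.51, 12.25, 12.41 and 12.27 against 13.31, 13.14, 12.93, 12.84 and 12.64 (0.47 ± 0.11, adjusted p = 0.00553). Ciita, the class II transactivator, was at 8.12, 8.27, 8.57, 8.06 and 7.53 against 8.64, 9.05, 8.88, 8.45 and 7.75 (0.45 ± 0.09, adjusted p = 0.00263), higher at 5 of 5 times. The protease Lgmn, which processes antigen, was the lower member (-0.63 ± 0.13, adjusted p = 0.0034).

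Few genes differed between early and late times. Comparing 2, 4 and 6 h with 12 and 24 h gave 2 genes with a negative contrast (0.0289%), Nrep (-1.68 ± 0.22) and Gypc (-1.0 ± 0.13), and 1 with a positive one (0.0144%), Hmox1, the haem oxygenase (1.27 ± 0.18), while 939 had an unadjusted p below 0.05. All 3 calls were lost when single times were left out. A slope of the difference on log2 of the time, added after the data had been seen, gave 15 genes with a falling difference (0.216%) and 19 with a rising one (0.274%), and 1104 at an unadjusted p below 0.05. The genes described here were chosen after their values were seen. Hilpda, a lipid droplet protein induced by hypoxia, was at 10.73, 10.89, 10.74, 10.49 and 11.95 in wild type and 10.52, 9.59, 9.46, 7.92 and 9.32 in CD14-deficient cells, so that its difference went from -0.21 at 2 h to -2.63 at 24 h (slope -0.70 ± 0.08 per doubling of time, adjusted p = 0.00267). S100a4, a calcium-binding protein of motile cells, was at 12.14, 11.66, 11.43, 10.63 and 9.48 against 12.86, 12.82, 12.91, 12.75 and 12.64 (slope 0.67 ± 0.05, adjusted p = 4.27e-04). It fell with time in wild type and stayed nearly level without CD14. S100a8, a subunit of calprotectin, was at 13.49, 13.25, 12.71, 12.34 and 10.97 against 13.62, 13.54, 13.40, 13.36 and 12.72 (slope 0.45 ± 0.05, adjusted p = 0.00234). These 3 slopes kept their call whichever time was left out, while those of Ddit4, Vegfa, C1qa, Ero1a, Csf2, Apoc2, Il33, Ifnb1 and S100a9 did not.

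**Figure D4:**
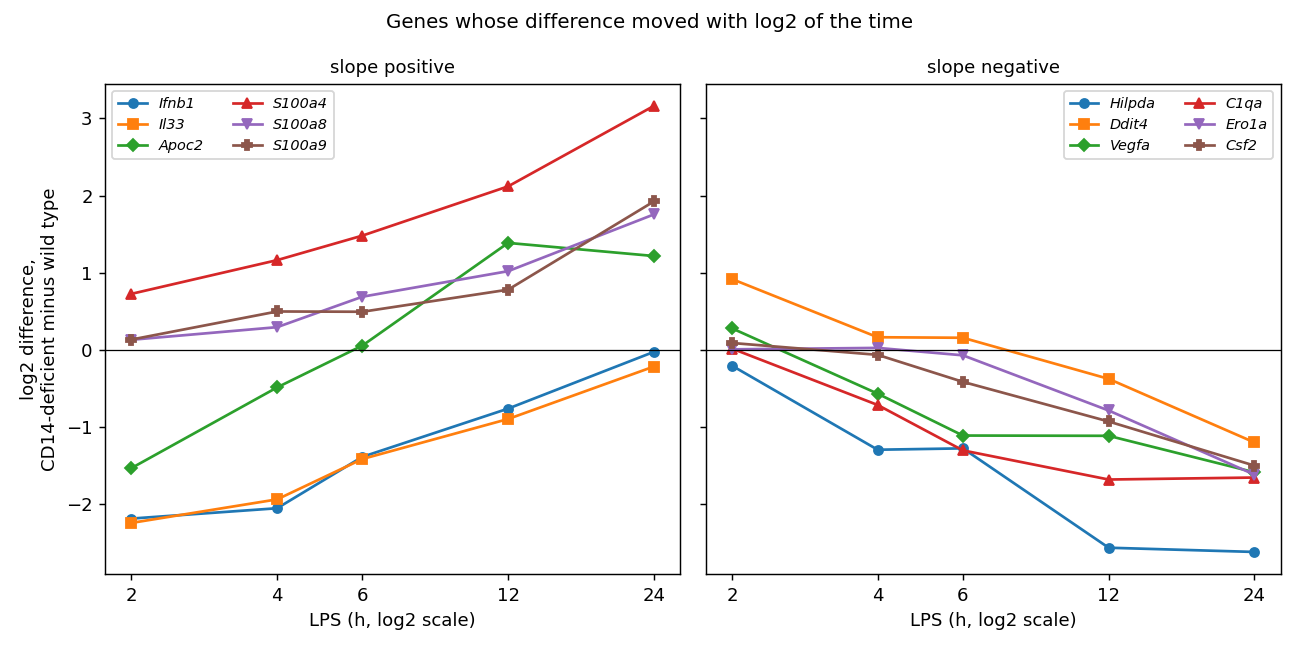
Log2 difference (CD14-deficient minus wild type) by hours of LPS, on a log2 time axis, for the 6 steepest rising and 6 steepest falling differences among the genes called, with 1 array per genotype behind each point and no error bars. S100a4 goes from 0.72 to 3.16 and Ifnb1 from -2.19 to -0.03, while Hilpda goes from -0.21 to -2.63 and Vegfa from 0.28 to -1.59.

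Hypoxia and glycolysis genes lay further below wild type at the late times. Of 23 tested 9 were lower (39.1%, against 12.6% of all genes) and 1 higher (against 17.1%). The 9 fell to 5 without the 12 h or the 24 h arrays and without the 24 h array of either genotype. The list had a median between -0.09 and -0.04 from 2 to 6 h, -0.28 at 12 h and -0.57 at 24 h. Hif1a, the oxygen-sensitive factor that LPS also induces, was at 12.66, 12.88, 12.86, 12.67 and 12.49 in wild type and 12.29, 12.41, 12.40, 12.13 and 12.06 in CD14-deficient cells, groups that did not overlap (-0.45 ± 0.04, adjusted p = 1.54e-05). Vegfa, the angiogenic factor it drives, was at 7.92, 7.86, 7.48, 7.58 and 9.76 against 8.20, 7.29, 6.36, 6.46 and 8.17 (-0.82 ± 0.20, adjusted p = 0.0071). P4ha1, a collagen prolyl hydroxylase subunit, was at 9.40 to 9.96 and 8.57 to 8.89 (-0.91 ± 0.09, adjusted p = 1.13e-05), and the glycolytic enzymes Pfkfb3 (-0.61 ± 0.10) and Hk2 (-0.43 ± 0.08) were lower too. Aldoa was the higher member with quantile scaling (0.34 ± 0.07) and did not pass with no further scaling (0.19). Of 23 genes of cell death and survival 8 were lower (34.8%) and 0 higher. The death ligand Tnfsf10 was at 5.99, 8.58, 8.87, 8.03 and 6.71 against 4.93, 6.71, 6.96, 6.24 and 5.50 (-1.57 ± 0.14, adjusted p = 8.54e-06), and the inflammatory caspases Casp1 (-0.73 ± 0.05, adjusted p = 1.36e-06) and Casp4, a cytosolic LPS sensor (-0.81 ± 0.08, adjusted p = 1.79e-05), were lower at 5 of 5 times.

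Mitosis genes were higher without CD14, and they also stood higher without LPS. Of 26 tested 23 were higher (88.5%, against 17.1% of all genes) and 0 lower (17 to 22 over the settings that leave out arrays of 1 time, 17 with no further scaling, 0 without the time block), with a median of 0.67 under LPS and 0.92 without it. Ube2c, of the ubiquitin machinery of mitotic exit, was at 9.14, 8.12, 7.92, 6.98 and 6.23 in wild type and 10.38, 9.77, 9.66, 8.58 and 7.59 in CD14-deficient cells (1.52 ± 0.09, adjusted p = 1.99e-07). Cdc20, the activator of the anaphase complex (1.41 ± 0.15), and the cyclins Ccnb2 (0.98 ± 0.09) and Ccna2 (0.79 ± 0.09) were higher at 5 of 5 times. Of 21 S phase genes 4 were higher (19%, near the share of all genes) and 1 lower, or 1 and 1 with no further scaling, with Rrm2, a ribonucleotide reductase subunit, higher (0.59 ± 0.11, adjusted p = 0.00221). Of 18 sterol synthesis genes 6 were higher (33.3%) and 0 lower, but 3 with median centring, 1 with no further scaling, and 3 without all 6 h arrays, the 6 h array of either genotype, the wild type 12 h array or the CD14-deficient 4 h array. Stard4, a cholesterol carrier, was at 9.77, 9.07, 9.02, 8.92 and 8.50 against 10.92, 10.46, 10.08, 9.77 and 9.66 (1.12 ± 0.10, adjusted p = 7.90e-06). Of 19 genes of the unfolded protein response 5 were higher (26.3%) with quantile scaling, 3 with median centring and 1 with no further scaling, and 0 were lower. They numbered 3 without the 4 h or the 6 h arrays or the wild type 4 h or 6 h array, and 2 without the 12 h arrays. Herpud1, of endoplasmic reticulum protein disposal, was among the 5 (1.09 ± 0.11, adjusted p = 1.94e-05).

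Uptake receptors, lipid carriers and metal transporters differed gene by gene. Apoe, a lipoprotein that macrophages release, was at 11.20, 11.02, 10.86, 10.68 and 10.40 in wild type and 9.43, 9.51, 9.35, 8.93 and 8.72 in CD14-deficient cells, groups that did not overlap (-1.65 ± 0.06, adjusted p = 2.52e-09). Of 11 genes of cholesterol efflux and lipoproteins 4 were lower (36.4%, against 12.6% of all genes) and 0 higher. Of 15 Fc and complement receptors and components 8 were lower (53.3%) and 1 higher, or 10 and 0 with no further scaling. Fcgr4, an activating IgG receptor, was at 9.91, 10.16, 10.13, 10.23 and 9.75 against 8.91, 8.49, 8.76, 8.36 and 8.07 (-1.52 ± 0.13, adjusted p = 4.16e-06). C1qc, of the first complement component (-1.36 ± 0.26, adjusted p = 0.00202), and C3ar1, the receptor for C3a (-0.90 ± 0.15, adjusted p = 9.41e-04), were lower. Marco, a scavenger receptor for bacteria, was higher, at 7.26, 8.21, 8.50, 8.41 and 8.47 against 8.60, 10.36, 10.34, 10.28 and 9.63 (1.67 ± 0.13, adjusted p = 2.82e-06), and without LPS it was at 5.52 against 7.42. The zinc and iron importer Slc39a14 was at 8.83, 8.34, 7.90, 7.78 and 7.85 against 9.69, 10.01, 9.64, 8.93 and 9.01 (1.32 ± 0.12, adjusted p = 8.32e-06), and the ferroxidase ceruloplasmin, Cp, was lower (-1.52 ± 0.16, adjusted p = 2.25e-05). Of 12 matrix protease genes 5 were lower (41.7%) and 2 higher (16.7%, against 17.1% of all genes), or 8 and 1 with no further scaling, among them the protease Mmp14 (-0.49 ± 0.07) and the inhibitor Timp1 (0.51 ± 0.12).

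Markers of other cells found in marrow cultures also differed between the genotypes, and their part in the results was not tested. Among all genes 12.6% were lower and 17.1% higher with quantile scaling, the shares against which the marker counts with that scaling stand. Of 10 macrophage markers tested 7 were lower (70%) and 0 higher (median -0.58 under LPS, -0.08 without it). Without the 6 h arrays 4 were lower, as without the wild type 6 h or 12 h array, and without the 12 h arrays 3. The summed level of the 12 on the array was 39345 to 44547 in wild type and 31318 to 40687 in CD14-deficient cells under LPS. Cd163 and Vsig4, which mark resident macrophages, were dim on all arrays. Of 11 granulocyte markers tested 5 were higher (45.5%), or 3 without the 12 h arrays, and 1, Mmp8, lower. The 12 on the array had a summed level of 8829 to 33424 against 16262 to 34627, and the neutrophil receptor Cxcr2 was dim on all arrays. Camp, the cathelicidin of neutrophil granules, was at 8.43, 7.77, 7.24, 7.61 and 6.53 against 9.76, 9.36, 9.01, 8.84 and 8.29 (1.53 ± 0.16, adjusted p = 3.26e-05), and the granule protease Elane was higher (0.74 ± 0.16, adjusted p = 0.00392). Of 12 dendritic cell markers tested 6 were higher (50%) and 0 lower with quantile scaling, 3 and 1 with median centring, and 2 and 1 with no further scaling. Without the 12 h arrays, the wild type 24 h array or the CD14-deficient 4 h array 3 were higher. The 13 on the array summed to 48744 to 52410 against 54137 to 58091. Of 4 mast cell and basophil markers tested 2 were lower, Cpa3 (-0.47 ± 0.10) and Kit (-0.36 ± 0.09, lost without the 4 h arrays at -0.27). The 9 on the array summed to 754 to 1107 against 618 to 801, and 5 of these 9 were dim on all arrays, among them Fcer1a and Ms4a2. The 2 plasmacytoid markers tested, Bst2 (-0.56 ± 0.07) and Tcf4 (-0.43 ± 0.10), were lower, and Bst2 is itself induced by interferon. All 6 T and NK cell markers on the array, 5 of 6 B cell markers, 4 of 5 erythroid markers and 4 of 5 melanoma markers were dim on every array.

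Many of the largest differences were also there without LPS. Of the 96 genes at least 2-fold lower 34 were also at least 2-fold lower in unstimulated cells, and of the 41 higher ones 22 were also 2-fold higher. Rpgrip1, known from the photoreceptor cilium, was at 10.12 to 10.59 in wild type and 5.38 to 5.98 in CD14-deficient cells under LPS, and at 10.41 and 5.74 without it (-4.81 ± 0.12, adjusted p = 9.35e-11). BC018473 was at 4.11 to 5.07 against 7.91 to 10.22, and at 4.23 and 9.40 without LPS (4.34 ± 0.24, adjusted p = 1.53e-07). Wdfy1, a phosphoinositide-binding endosomal protein, was at 8.80 to 9.39 against 6.51 to 7.31, and at 8.52 and 6.41 without LPS (-2.23 ± 0.14, adjusted p = 4.10e-07). The ranges of these 3 genes did not overlap. Erdr1 (-3.38 ± 0.25), the peptide hormone gene Cck (-2.56 ± 0.13) and the peptide transporter Slc15a2 (-2.44 ± 0.18) were likewise lower with and without LPS, as were Rgcc, a cell cycle regulator (-2.72 ± 0.17), and Ndrg2 (-2.21 ± 0.22). BC023105 (2.65 ± 0.16), the carbonic anhydrase Car4 (2.33 ± 0.16), Rnase2a (1.55 ± 0.09) and the tight junction gene Cldn1 (1.53 ± 0.21) were higher. Slc26a4, an anion exchanger, was at 4.52, 5.19, 4.54, 6.11 and 5.79 against 6.69, 7.77, 8.06, 8.06 and 7.13 (2.31 ± 0.29, adjusted p = 1.34e-04), and at 4.59 and 5.64 without LPS. Adi1 was higher by its brightest probe set (2.12 ± 0.15), but its other probe sets gave -1.27 and -0.51, and their mean did not pass (0.11). The differences of Rpgrip1, BC018473 and Slc15a2 also rest on 1 probe set each. Their other probe sets, at mean levels of 5.63 or less, gave -0.29, 0.02 and 0.22 for Rpgrip1, 0.07 for BC018473 and 0.26 for Slc15a2. Those of Wdfy1, Rgcc and Car4 had the same sign as the one used. For Cldn1 the others gave 1.02, 0.09 and 0.02, the smaller values at mean levels of 4.69 and 5.45. The share of tested genes with such a 2-fold difference was 4.76% on chromosome 14 (11 of 231) and 3.98% on chromosome 18, which carries Cd14 (7 of 176), and on the other numbered chromosomes it lay between 0.829% (3 of 362 on chromosome 6) and 3.11% (7 of 225 on chromosome 12).

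**Figure D5:**
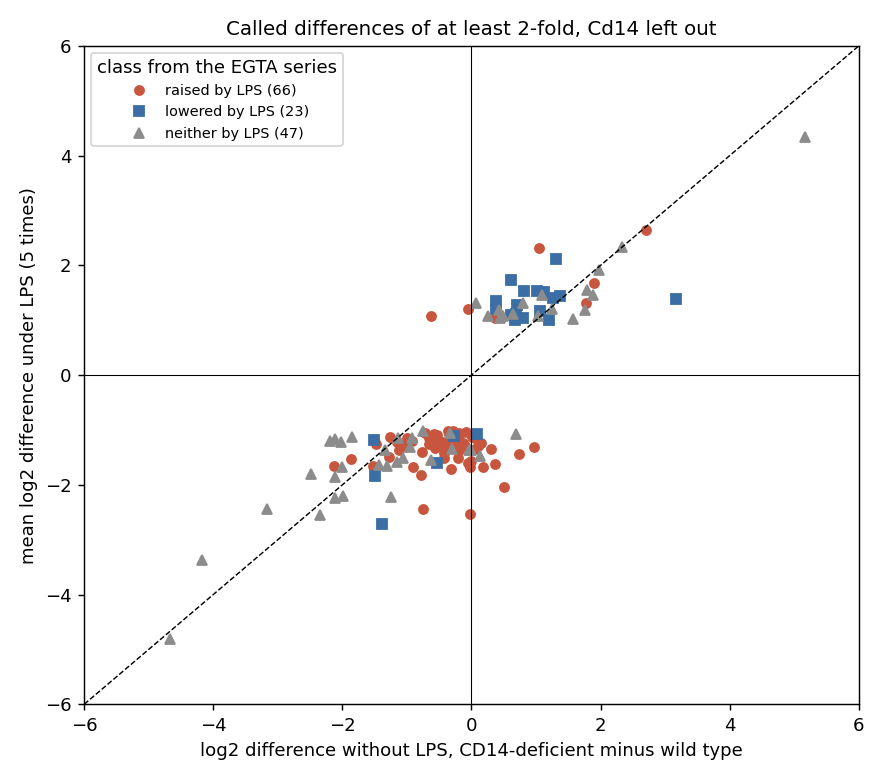
Mean log2 difference under LPS over the 5 times, on the vertical axis, against the log2 difference between the unstimulated arrays, on the horizontal axis, for the 136 genes called at least 2-fold different, Cd14 left out, marked by their LPS response in the EGTA series. Genes on the dashed line differ equally with and without LPS, as Rpgrip1 nearly does (-4.81 and -4.67), while Nos2 lies at -2.53 with LPS and at -0.03 without it.

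Over the 667 raised genes, the changes of each CD14-deficient array from its baseline were most like those of the wild type array of the same time at all 5 times. Pearson's r across genes was 0.866 at 2 h and 0.882 to 0.898 at 4 to 24 h, given as a description, since genes are not independent and arrays of a genotype share 1 baseline. The 4 h array without CD14 gave 0.824 against the 2 h wild type array and 0.898 against the 4 h one. The margin was thin for the 6 h array, which gave 0.893 against the 6 h wild type array, 0.880 against the 4 h and 0.877 against the 12 h one. Of the 667 genes 395 were highest at the same time in both genotypes, 129 later and 143 earlier in CD14-deficient cells.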

How the data were processed

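RNA of mouse dendritic cells was hybridised to 18 Affymetrix arrays of 22690 probe sets. The authors deposited linear intensity values made with MAS5, per the submitters' processing notes; its version is not given in the sources used here, nor is its target value. The deposited intensities were turned here into log2(intensity + 16) and quantile-normalised over the 18 arrays. Of the probe sets 20393 had 1 gene in the platform annotation, 691 several and 1606 none, and those of several or no genes were left out; 20364 were matched to RefSeq GRCm38.p6. Each of 12394 genes was read from its probe set of highest mean, and 6929 genes were tested, those that exceeded the median of the array on 2 or more of the 15 LPS arrays. The precision is limited by the number of arrays.

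Groups came from genotype and treatment in the labels. limma 3.58.1 in R 4.3.3 (lmFit, eBayes with trend, Benjamini-Hochberg adjusted p over all genes tested, threshold 0.05) was fitted to the 15 LPS arrays with the LPS time as a block, since arrays of the same number share the labelled time; 8 residual degrees of freedom remained for the mean difference and 6 for contrasts between times. The genes named were Cd14, the 10 largest rises and falls with the same sign at all 5 times, the 6 largest contrasts in time each way, up to 4 members of each list by p with up to 2 against its majority, and a set of 30 LPS response genes, of which 1 is not reported here. The members and lists were chosen with earlier results of these data known. Alternatives were other scalings, amounts added before the log, filters, probe set rules, arrays in the fit, no time block, no trend, and leaving out arrays. Beside list counts the same share over all genes stands in place of a set test.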

Additional observations from a re-analysis of the deposited data

Results flagged for a closer look

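Among 159 genes whose 5 differences were checked, 22 had 1 time far from the other 4. By chance about 1 of 20 genes would, but some of the 159 were named for a large contrast between times, so the count cannot be read against that share. At 2 h this was a negative difference for Irf7 (-2.40), Oasl2 (-3.18), Rasa4 (-3.11), Ifit2 (-3.00), Pml (-2.77), Ifit1 (-2.54), Rtp4 (-2.26), Gbp6 (-2.26), Igtp (-1.86), Ifih1 (-1.14), Tap1 (-0.91) and Lad1 (-0.40), and a positive one for Sqle (0.84), Dusp1 (1.20), Zdhhc6 (2.93) and Uroc1 (1.20). At 24 h it was Tlr3 (-0.68), Il6 (-1.09), Pf4 (-0.43) and Nfkbib (-0.60), at 4 h Ifi30 (0.25) and at 12 h Ccna2 (0.28).

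The difference between genotypes changed with time, by the test of that change in the limma fit, for the following genes, several of them named above. Early minus late times it was 1.27 for Hmox1, -1.68 for Nrep and -1.0 for Gypc. At 2 h minus the later times it was negative for Irf7 (-1.5), Oasl2 (-2.73), Rasa4 (-2.23), Ifit2 (-2.16), Pml (-1.99), Ifit1 (-1.91), Rtp4 (-1.91), Usp18 (-1.35), Gbp6 (-1.12), Igtp (-0.97), Dhx58 (-1.16) and Lad1 (-1.13). It was positive for Ccl12 (3.07), Fcgr1 (1.09), Dusp1 (1.33), Adam4 (1.73), Zdhhc6 (2.76), Uroc1 (2.03) and Fbxo32 (1.79). Per doubling of the time the difference rose for Ifnb1 (0.64), Irf1 (0.33), S100a4 (0.67), Il33 (0.58), S100a8 (0.45), S100a9 (0.45) and Apoc2 (0.83). It moved the other way for Hilpda (-0.70), Vegfa (-0.48), C1qa (-0.48), Ddit4 (-0.55), Ero1a (-0.47), Csf2 (-0.46) and Ddit3 (-0.37).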

How the results depend on the processing

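The time block carried most calls: with no replicate block 57 genes were lower and 49 higher, all 106 of them among the 2058 of the paired fit. With no further scaling 301 genes were higher, and 1140 of the 2058 calls were kept, with 16 reversed; with the mean of the probe sets 1669 were kept and 23 reversed. On leaving out arrays of 1 time, genes lower numbered 611 to 893 and genes higher 764 to 1156. The early against late contrast gave 7 positive genes with no further scaling, 5 negative and 9 positive with 64 added, 0 and 0 with the 10 arrays alone, 19 and 15 as a slope, and 0 to 28 negative and 0 to 38 positive on leaving out a time. The 2 h contrast gave 31 negative and 5 positive genes with the 10 arrays alone, and 29 to 68 and 3 to 22 on leaving out 1 of the later times. The slope gave 50 rising genes with median centring, 8 falling and 10 rising with no further scaling, 34 and 30 with 64 added, 2 and 5 with the 10 arrays alone, and 1 to 109 and 4 to 78 on leaving out a time. The sign turned for Il1b with median centring (-0.025), no further scaling (-0.092), without the 12 h arrays (-0.00032) and without the CD14-deficient 12 h array (-0.0035, where the highest value on leaving out an array was 0.041), for Ccr7 with no further scaling (-0.047), and for Nr4a1 without the 2 h arrays (-0.092) and without the wild type 2 h array (-0.13, where the highest was 0.31). Of 133 reported genes called on the mean difference 109 kept their call in every setting that leaves out arrays. For the contrasts in time only whole times were left out, and for the 2 h contrast never the 2 h arrays, on which it rests. In those fewer settings 13 of 19 genes kept their call on the 2 h contrast, 0 of 3 on early against late and 3 of 14 on the slope. The 13 of 19 therefore say nothing of how far the 2 h contrast depends on the 2 h arrays. The causes were not tested, apart from fewer arrays in the fit. Genes near the start or the top of the scale, such as Pml at 2 h, Il1b and Il6, may be less well measured, which was not tested.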
